A study of Rattus norvegicus with 15 samples.

Results

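Endothelial genes were examined in single first molar tooth germs of rat embryos at 3 stages. The members were fixed by name as genes that mark the cells lining blood vessels, in the order Pecam1 (ENSMUSG00000020717), Cdh5 (ENSMUSG00000031871), Kdr (ENSMUSG00000062960), Flt1 (ENSMUSG00000029648), Tek (ENSMUSG00000006386), Tie1 (ENSMUSG00000033191) and Emcn (ENSMUSG00000054690). Of these 7 genes, 6 had a row among the 14185 genes of the count table, and Pecam1 was therefore not analysed here. The rat counts are listed under mouse Ensembl identifiers. All libraries were made from wild-type DA/HanRj rats without treatment, with 5 teeth at E15 (label E15.5), 5 at E17 (label E17.5) and 5 at E18. In the study E15 is the bud stage and E17 the cap stage. Each library came from 1 tooth. E17 replicates 1 and 2 were the left and right tooth of 1 embryo and the other teeth of a stage came from different embryos, so that the p-values measure the spread between these teeth. Little tissue around the germs was kept at dissection, and reads from vessels in it and in the germ itself are counted together. The study sequenced rat molars at E15 and E17, with a focus on genes needed in tooth development, not on vessels. Its text does not describe the E18 teeth. The 3 stages are used here to describe the levels of endothelial genes as the germ grows.

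Library totals ranged from 10993502 to 27571541 estimated counts. E18 replicate 3 stood apart, with a mean correlation of 0.873 to the other E18 teeth (log2 values, across 12518 genes), against 0.950 to 0.985 within a stage for the other 14 libraries. E15 replicate 3 stood apart as well: its mean correlation was 0.950, against 0.970 to 0.978 for the other E15 teeth, and its chi-square per gene was 43.9 to 65.4 against each of them, where the other E15 pairs had 6.90 to 12.1. The E15 and E18 means of the members are given with and without these teeth. Each stage has its own title code, and the E18 labels carry a protocol text of their own, so that stage and preparation cannot be told apart.

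The members act in a few connected systems. Vascular endothelial growth factors signal through the receptor encoded by Kdr (VEGFR2), which drives growth and sprouting of endothelial cells, whereas the receptor encoded by Flt1 (VEGFR1) binds the same factor with high affinity, signals weakly and is also made as a soluble form that captures the ligand. Tek encodes TIE2, the receptor of the angiopoietins that steady vessels, and Tie1 encodes its partner receptor. Cdh5 encodes VE-cadherin of the junctions between endothelial cells, and Emcn encodes endomucin, a sialomucin on the surface of veins and capillaries. In the tooth, capillaries are known to gather around the early germ and later to enter the dental papilla.

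Promoters are shown for the pair of VEGF receptors, because Flt1 passed the test below and Kdr did not. The sequences are those of RefSeq (GRCr8), from 250 bases before to 50 bases after the start of the gene. They run 5′ to 3′ on the strand of the gene, with AGGAAG, a form of the ETS motif, in capitals. Flt1 lies at chr12:12333180-12333479 (+ strand) and Kdr at chr14:32571813-32572112 (+ strand).
Flt1: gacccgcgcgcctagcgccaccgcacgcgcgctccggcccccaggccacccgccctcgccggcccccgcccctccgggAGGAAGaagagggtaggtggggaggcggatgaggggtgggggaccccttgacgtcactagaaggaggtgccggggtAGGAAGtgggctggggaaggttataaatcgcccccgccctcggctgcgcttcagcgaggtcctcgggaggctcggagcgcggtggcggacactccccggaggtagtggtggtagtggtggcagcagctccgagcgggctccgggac
Kdr: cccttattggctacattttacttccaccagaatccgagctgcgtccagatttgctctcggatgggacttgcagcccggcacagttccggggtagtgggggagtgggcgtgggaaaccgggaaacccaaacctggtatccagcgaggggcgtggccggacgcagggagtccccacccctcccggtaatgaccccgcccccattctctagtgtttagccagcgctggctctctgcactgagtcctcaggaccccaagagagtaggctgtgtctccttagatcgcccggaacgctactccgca
Promoters were found for 4 of the 7 members, Flt1, Kdr, Tie1 and Emcn; Pecam1, Cdh5 and Tek had no entry. ETS factors are known regulators of endothelial genes. On both strands AGGAAG occurred 2 times in Flt1 and in Emcn, 1 time in Tie1 and 0 times in Kdr, while 34.5% of 33469 promoters of this length held it. Other forms of the ETS motif were not counted. The shorter GGAA does occur in the Kdr window, so a count of 0 does not mean that Kdr lacks ETS sites. The FOX:ETS motif AACAGGAA occurred 1 time, in Emcn, where it overlaps a match to AGGAAG (2.58% of promoters). The KLF motif CCACACCC occurred 1 time, in Tie1 (3.22%), and the GATA motif AGATAA in none of the 4 windows (11.6%). These matches describe letters in a short window and were not tied to any measurement.

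All 6 measured members were read in every tooth at every stage, from 116 counts of Emcn in 1 tooth to 4697 counts of Cdh5 in another. Levels are given below as CPM (reads of a gene relative to library size) scaled by TMM over the 15 libraries, in the order of replicates 1 to 5. Gene lengths were not used, so levels of different genes are not compared. In bulk tissue, fewer endothelial cells and less RNA per cell cannot be told apart. Between E15 and E18 a single member passed the test: Flt1 rose at E17 and was higher again, without passing the test for that step alone, at E18. Kdr, Tek, Tie1, Cdh5 and Emcn did not pass the test in any comparison.

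Among the VEGF receptors, Flt1 stood at 41.8, 44.3, 40.2, 44.6 and 42.5 CPM in the E15 teeth. At E17 the values were 49.6, 48.7, 55.1, 54.7 and 49.3 CPM. At E18 they were 55.0, 57.8, 69.5, 59.4 and 57.0 CPM. Each tooth of E17 and E18 had more Flt1 than any tooth of E15, and 4 of 5 E18 teeth lay above all E17 teeth. The stage means were 42.7 ± 1.83 at E15, 51.5 ± 3.14 at E17 and 59.7 ± 5.67 CPM at E18 (SD, n = 5 each). Without replicate 3, the tooth with the lowest E15 and the highest E18 value, the E15 mean was 43.3 ± 1.36 and the E18 mean 57.3 ± 1.85 CPM.

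The rise of Flt1 from E15 to E17 was 1.21-fold (95% interval 1.10 to 1.33), or 0.27 on the log2 scale (95% interval 0.14 to 0.41; edgeR quasi-likelihood test, adjusted p = 0.00923). From E15 to E18 it was 1.40-fold (95% interval 1.23 to 1.60), or 0.49 on the log2 scale (95% interval 0.30 to 0.68; edgeR adjusted p = 0.00200). From E17 to E18 the difference was 0.22 on the log2 scale (95% interval 0.04 to 0.40), and did not pass (edgeR adjusted p = 0.229). The 2 steps were not shown to differ from each other (difference −0.06 on the log2 scale, 95% interval −0.34 to 0.22, edgeR adjusted p = 0.983). By their labels (E15.5, E17.5 and E18) the first step is longer, so that this contrast compares whole steps and not the pace of change. These changes of Flt1 were smaller than 2-fold. The counts cover the whole gene, so that the membrane receptor and its soluble form were not separated.

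Kdr stood at 97.8, 117, 132, 119 and 113 CPM in the E15 teeth. At E17 the values were 114, 134, 110, 119 and 110 CPM. At E18 they were 128, 120, 97.6, 129 and 104 CPM. The 3 stages overlapped widely, with means of 116 ± 12.4, 117 ± 10.01 and 116 ± 14.2 CPM (SD, n = 5 each). Without replicate 3 the E15 mean was 112 ± 9.68 and the E18 mean 120 ± 11.5 CPM. The log2 difference was 0.02 from E15 to E17 (95% interval −0.16 to 0.20), −0.02 from E17 to E18 (95% interval −0.23 to 0.20) and 0.01 from E15 to E18 (95% interval −0.24 to 0.25), with edgeR adjusted p-values of 0.883, 0.933 and 0.979. A change of Kdr by more than 1.19-fold upwards from E15 to E18 lies outside its interval, whereas the whole interval of Flt1 lay at or above 1.23-fold.

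**Figure D1:**
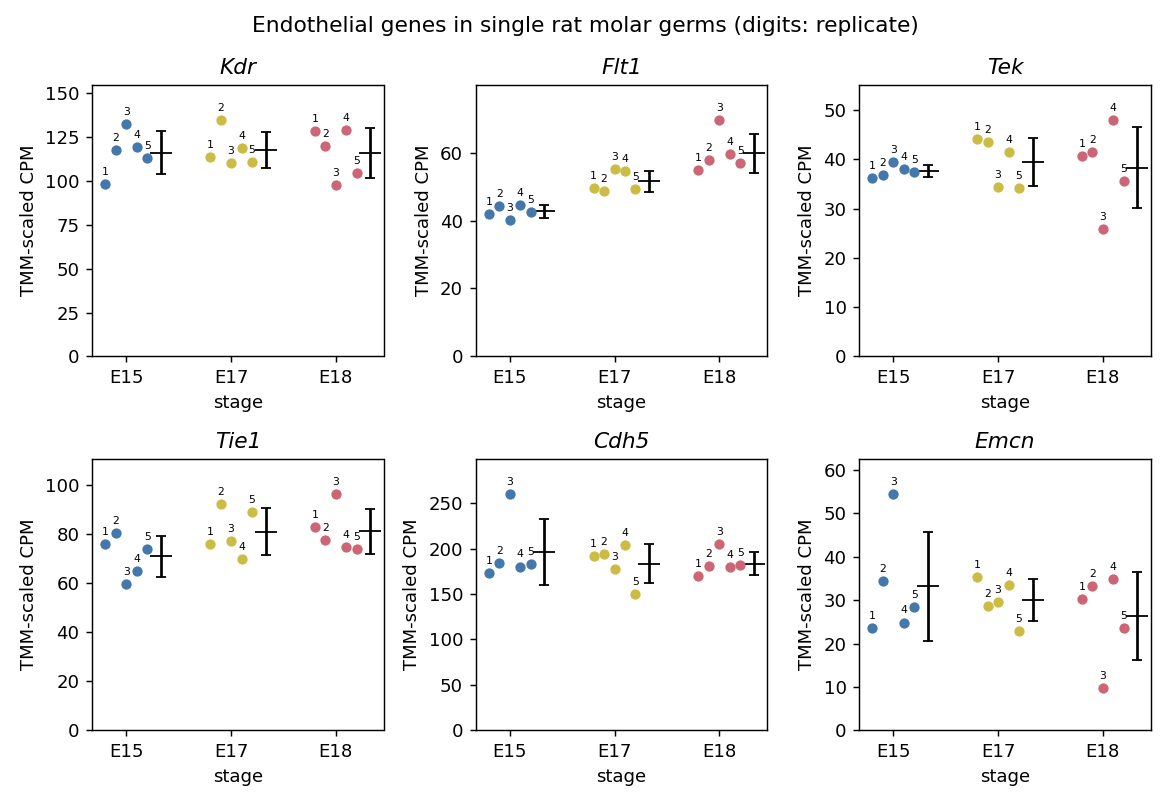
Levels of the 6 endothelial genes in single teeth, 1 panel per gene; the x axis is the stage, the y axis the TMM-scaled CPM from 0, points are teeth with their replicate number, and black marks are the mean ± SD (n = 5). Flt1 has no E15 tooth above 44.6 and no later tooth below 48.7 CPM, while the stages of the other genes overlap.

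Of the Tie receptors, Tek stood at 36.3, 36.9, 39.5, 38.1 and 37.5 CPM at E15. At E17 the values were 44.2, 43.5, 34.5, 41.4 and 34.1 CPM. At E18 they were 40.7, 41.4, 25.8, 47.9 and 35.6 CPM. The stages overlapped, and the spread widened from ± 1.23 around 37.6 CPM at E15 to ± 4.89 around 39.5 CPM at E17 and ± 8.24 around 38.3 CPM at E18 (SD, n = 5 each; the difference in spread was not tested). Without replicate 3 the E15 mean was 37.2 ± 0.781 and the E18 mean 41.4 ± 5.05 CPM. The log2 difference of Tek was 0.07 from E15 to E17 (95% interval −0.11 to 0.26, edgeR adjusted p = 0.602), −0.04 from E17 to E18 (95% interval −0.39 to 0.30, adjusted p = 0.901) and 0.03 from E15 to E18 (95% interval −0.29 to 0.35, adjusted p = 0.893).

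Tie1 stood at 75.9, 80.4, 59.7, 65.1 and 74.1 CPM at E15. At E17 the values were 76.2, 92.6, 77.1, 69.8 and 89.3 CPM. At E18 they were 83.2, 77.6, 96.5, 74.8 and 73.9 CPM. After Flt1 this gene had the largest upward difference from E15 to E17, yet the stages overlapped: 2 of 5 E17 teeth exceeded the highest E15 tooth. The means were 71.0 ± 8.42, 81.0 ± 9.58 and 81.2 ± 9.27 CPM (SD, n = 5 each). Without replicate 3 the E15 mean was 73.9 ± 6.40 and the E18 mean 77.4 ± 4.18 CPM. The log2 difference was 0.19 from E15 to E17 (95% interval −0.02 to 0.40, edgeR adjusted p = 0.192), 0.20 from E15 to E18 (95% interval −0.04 to 0.44, adjusted p = 0.228) and 0.00 from E17 to E18 (95% interval −0.22 to 0.23, adjusted p = 0.983), and none passed.

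The junction gene Cdh5 stood at 173, 184, 260, 180 and 183 CPM at E15. At E17 the values were 192, 194, 178, 204 and 150 CPM. At E18 they were 169, 181, 205, 180 and 182 CPM. Apart from E15 replicate 3, at 260 CPM, the E15 teeth lay between 173 and 184 CPM, inside the E17 range. The means were 196 ± 36.1, 183 ± 21.2 and 183 ± 13.0 CPM (SD, n = 5 each), and without replicate 3 they were 180 ± 5.14 CPM at E15 and 178 ± 5.89 CPM at E18. The log2 difference was −0.09 from E15 to E17 (95% interval −0.34 to 0.16, edgeR adjusted p = 0.636), −0.09 from E15 to E18 (95% interval −0.35 to 0.17, adjusted p = 0.613) and 0.00 from E17 to E18 (95% interval −0.20 to 0.20, adjusted p = 0.994).

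The surface sialomucin gene Emcn stood at 23.7, 34.4, 54.5, 24.8 and 28.5 CPM at E15. At E17 the values were 35.3, 28.7, 29.7, 33.5 and 22.8 CPM. At E18 they were 30.3, 33.2, 9.79, 35.0 and 23.5 CPM. Its highest value was that of E15 replicate 3 and its lowest that of E18 replicate 3, and the means were 33.2 ± 12.6, 30.0 ± 4.84 and 26.4 ± 10.2 CPM (SD, n = 5 each). Without replicate 3 the E15 mean was 27.8 ± 4.81 and the E18 mean 30.5 ± 5.03 CPM, so that the order of these means turned. The log2 difference was −0.13 from E15 to E17 (95% interval −0.58 to 0.31, edgeR adjusted p = 0.706), −0.18 from E17 to E18 (95% interval −0.80 to 0.44, adjusted p = 0.752) and −0.32 from E15 to E18 (95% interval −1.04 to 0.40, adjusted p = 0.514). Without both of these teeth, a pair picked once their values were known, the E15 to E18 value was 0.15. A 2-fold fall of Emcn lay inside its interval from E15 to E18, so that Emcn is the member about which these teeth say least.

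**Figure D2:**
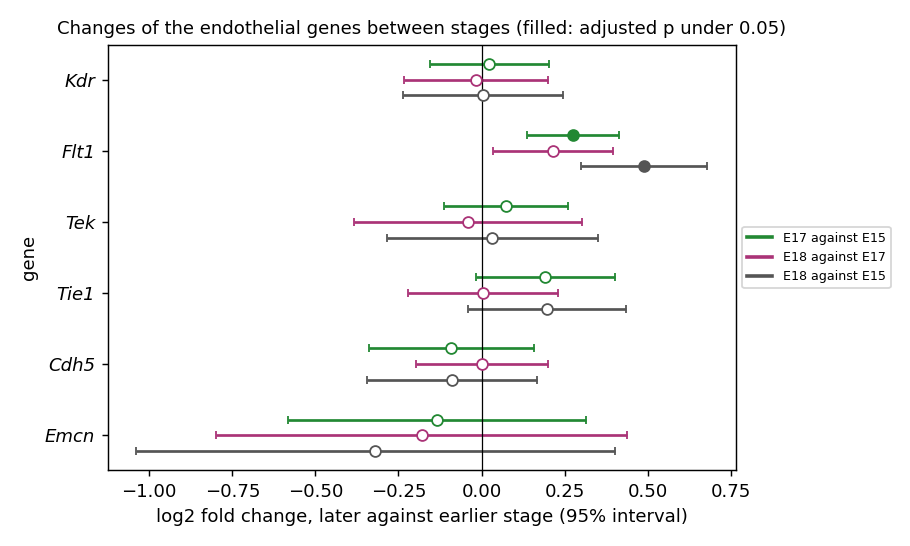
Log2 fold changes of the 6 genes between stages; the x axis is the log2 fold change of the later against the earlier stage, points are edgeR estimates, bars are 95% intervals and filled points have an adjusted p under 0.05. The filled points are those of Flt1 from E15 to E17 and from E15 to E18, at 0.27 and 0.49, and Emcn has the widest bars.

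As a group, 1 of 6 members was called from E15 to E17, where 18.3% of 12627 genes tested were called (11.3% higher and 7.02% lower). From E15 to E18 1 of 6 was called, against 21% of 12661 genes (14.2% higher and 6.73% lower). From E17 to E18 0 of 6 were called by edgeR, against 2.54% of 12718 genes (1.91% higher and 0.629% lower). At an unadjusted p under 0.05, 1 member and 2021 genes stood in that last comparison, and DESeq2 called 0 members too. The contrast of both steps gave 0 of 6 members in edgeR (0 at an unadjusted p under 0.05), against 0.551% of 12894 genes. Counts of 1 in 6 and 0 in 6 members are near these background shares and say nothing particular about the members. The comparisons share libraries, E15 to E17 and E15 to E18 those of E15.

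The median log2 fold change over the 6 members was 0.05 from E15 to E17, −0.01 from E17 to E18 and 0.02 from E15 to E18, beside −0.01, −0.02 and −0.02 over all genes tested. The 95% interval lay within ± 0.5 on the log2 scale for 5, 5 and 4 of the 6 members in these comparisons, and Emcn was outside in each. Of all genes tested, 59.7%, 47.6% and 32.7% had such an interval, in the same order. The width of an interval also depends on the read depth of a gene, and no difference from these shares was tested. Summed over the members, the level was 496 ± 53.1 CPM at E15, 503 ± 33.6 CPM at E17 and 505 ± 17.97 CPM at E18 (SD, n = 5 each), with ranges of 448 to 586, 456 to 542 and 476 to 526 CPM that overlap. E15 replicate 3 had the highest E15 sum, and the other E15 teeth ranged from 448 to 498 CPM. The sum weighs Cdh5 and Kdr most. The mean of the log2 levels, in which the members weigh the same, was 6.04 ± 0.13, 6.10 ± 0.09 and 6.07 ± 0.16 (SD, n = 5 each).

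Tooth by tooth, the members did not move as a block. In E15 replicate 3, 4 members (Cdh5, Emcn, Kdr and Tek) had their highest E15 value and 2 members (Flt1 and Tie1) their lowest. In E18 replicate 3, 3 members (Cdh5, Flt1 and Tie1) had their highest E18 value and 3 members (Kdr, Tek and Emcn) their lowest. There Emcn lay at −1.62 on the log2 scale from the median of its stage and Tek at −0.65. In the other 13 teeth every member lay between −0.38 and 0.27 of its stage median.

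**Figure D3:**
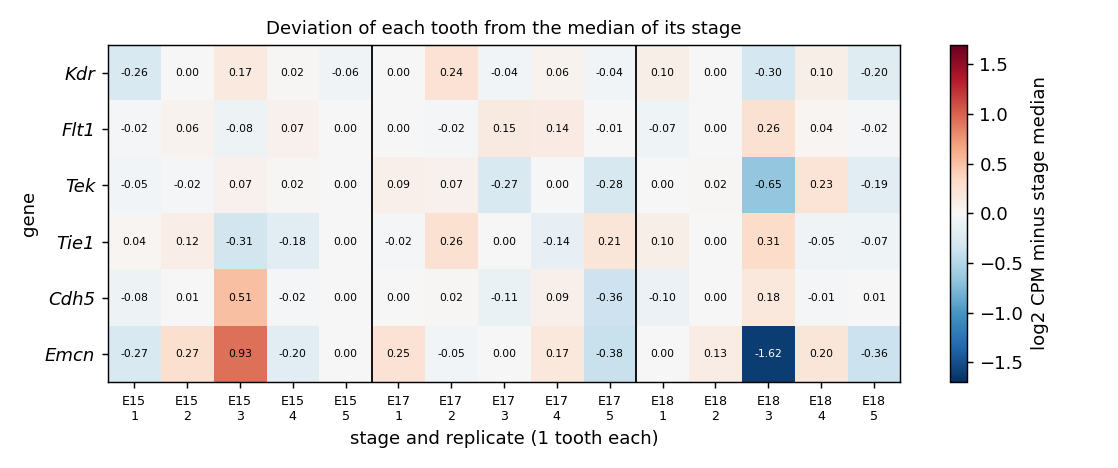
Log2 CPM of each gene in each tooth minus the median of its stage; columns are teeth by stage and replicate, rows are genes, and colours and digits give the deviation. The strongest colours are in E15 replicate 3, with Emcn at 0.93, and in E18 replicate 3, with Emcn at −1.62.

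Ratios of read counts within a tooth do not depend on the scaling between libraries. They are ratios of reads, not of molecules, and were chosen after the values were seen, so they are given without a test. Flt1 to Kdr was 0.372 ± 0.0440 at E15, 0.441 ± 0.0502 at E17 and 0.526 ± 0.112 at E18 (SD, n = 5 each). The E15 teeth ranged from 0.304 to 0.428, the E17 teeth from 0.363 to 0.501 and the E18 teeth from 0.429 to 0.712. All E18 teeth lay above all E15 teeth, with the closest at 0.429 and 0.428, and without E18 replicate 3 the highest E18 ratio was 0.547. Tie1 to Tek was 1.89 ± 0.277, 2.08 ± 0.387 and 2.26 ± 0.851 (SD, n = 5 each), where E18 replicate 3 reached 3.74 and the other E18 teeth 1.56 to 2.07. Emcn to Cdh5 was 0.165 ± 0.0318, 0.163 ± 0.0142 and 0.147 ± 0.0608 (SD, n = 5 each), with 0.0478 in E18 replicate 3 and 0.129 to 0.195 in the others.

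**Figure D4:**
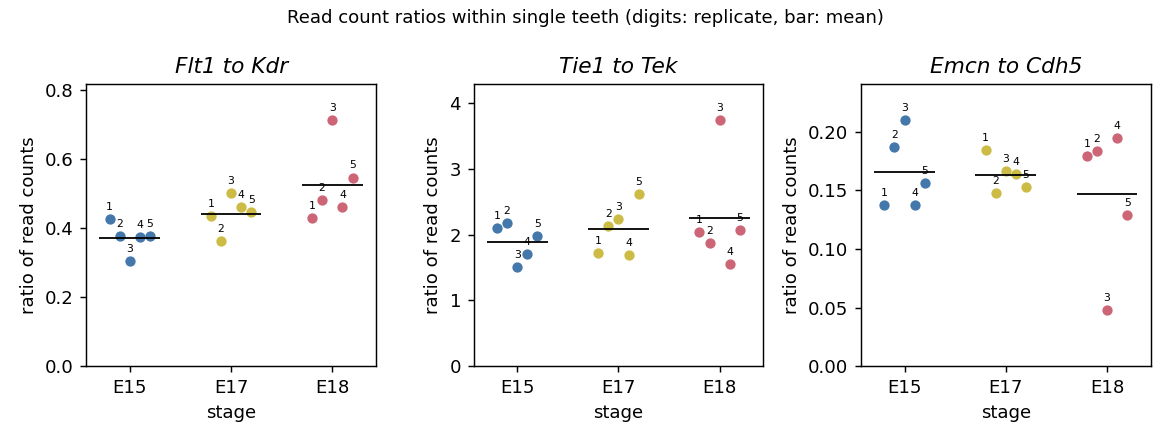
Ratios of read counts within single teeth for Flt1 to Kdr, Tie1 to Tek and Emcn to Cdh5; the x axis is the stage, the y axis the ratio from 0, points are teeth with their replicate number and bars are means. Flt1 to Kdr has its highest value, 0.712, and Tie1 to Tek its highest, 3.74, in E18 replicate 3.

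Other genes of vessel biology could be joined to the table for 11 of 51 genes listed around VEGF co-receptors, Notch signalling, pericytes, vascular basement membrane and response to low oxygen. These genes are also active outside vessels: Notch receptors and ligands in the dental epithelium, type IV collagen in the basement membrane between epithelium and mesenchyme. They could be joined because the study lists them among its tooth development and pathway genes, so the 11 are not a random draw from the 51. The shares over all genes below are therefore no matched background for them. From E15 to E17, 6 of 11 rose, 0 fell and 5 did not pass (median log2 fold change 0.39, against −0.01 over all genes). Of all genes tested, 11.3% were higher and 7.02% lower in that comparison. From E15 to E18, 9 rose, 1 fell and 1 did not pass (median 0.50, against −0.02), where 14.2% of all genes were higher and 6.73% lower. From E17 to E18, 1 rose and 10 did not pass (median 0.22, against −0.02), where 1.91% of all genes were higher. The number higher moved with single libraries, between 5 and 7 from E15 to E17, between 5 (without E15 replicate 4) and 10 from E15 to E18, and between 0 and 2 from E17 to E18, where 0 were called without any 1 of the 5 E17 teeth, E18 replicate 4 or E18 replicate 5 and 2 without E18 replicate 1. With E17 replicates 1 and 2, the teeth of 1 embryo, summed to 1 replicate, 0 of 11 were called from E17 to E18.

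In the Notch group, 5 of 10 listed genes could be joined. Of these, 2 of 5 rose from E15 to E17 and 5 of 5 from E15 to E18, where 11.3% and 14.2% of all genes tested were higher. Without E15 replicate 4 the calls of Dll4, Jag2 and Hes1 from E15 to E18 were all lost (edgeR adjusted p = 0.103, 0.0526 and 0.0618), which leaves 2 of 5. The call of Hes1 was also lost without E15 replicate 5 or E18 replicate 2, 4 or 5, with adjusted p-values from 0.00202 to 0.0636 over its alternatives. Notch1, a receptor, rose from 225 ± 15.8 to 378 ± 8.24 CPM at E17 (SD, n = 5 each; log2 fold change 0.75, edgeR adjusted p = 2.64e-06) and stood at 479 ± 87.6 CPM at E18, or 445 ± 46.9 without replicate 3. Jag1, a ligand, rose by 0.39 on the log2 scale from E15 to E17 (edgeR adjusted p = 0.000251). Dll4, the ligand of sprouting tip cells and the Notch gene most tied to endothelium, stood at 13.2 ± 2.46, 16.0 ± 2.32 and 18.6 ± 2.50 CPM (SD, n = 5 each). Its log2 difference was 0.27 from E15 to E17 (95% interval −0.05 to 0.60, edgeR adjusted p = 0.231), which did not pass, and 0.49 from E15 to E18 (95% interval 0.14 to 0.84, adjusted p = 0.0484). That call was lost without any 1 of the 5 E15 teeth and without E18 replicate 2, 4 or 5, with adjusted p-values from 0.0214 to 0.113 over its alternatives.

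Of 12 listed pericyte genes, 2 could be joined. From E15 to E17 1 of 2 rose and from E15 to E18 both did, against 11.3% and 14.2% of all genes tested. Cspg4, the NG2 proteoglycan, rose by 0.59 from E15 to E17 and by 0.72 from E15 to E18 on the log2 scale (edgeR adjusted p = 0.00106 and 0.00295). Notch3 rose by 0.50 from E15 to E18 (edgeR adjusted p = 0.0387), a call lost without E15 replicate 1, 2, 3 or 4 or E18 replicate 5 (adjusted p from 0.0101 to 0.0788 over its alternatives). Of 9 listed basement membrane genes, 2 could be joined, and 2 of 2 rose from E15 to E17, against 11.3% of all genes tested. Col4a1, a chain of type IV collagen, rose from 869 ± 48.2 to 1225 ± 52.6 and then to 1673 ± 253 CPM (SD, n = 5 each; log2 fold changes 0.50 and 0.45, edgeR adjusted p = 4.34e-05 and 0.0397), and its later step was not past the threshold with the teeth of the shared E17 embryo summed (0.46, adjusted p = 0.0838), without any 1 of the 5 E17 teeth or without E18 replicate 4 or 5. Without E18 replicate 3, at 2090 CPM, the E18 mean of Col4a1 was 1569 ± 115 CPM. Lama4, a laminin chain of vessels and other tissues, rose by 0.17 from E15 to E17 (edgeR adjusted p = 0.0448), a call kept in 4 of 16 alternatives and lost with the teeth of the shared E17 embryo summed (adjusted p = 0.0927) and without E15 replicate 1, 2 or 4 or any 1 of the 5 E17 teeth.

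Of 12 listed genes of the response to low oxygen, only 1 could be joined, Ndrg1. It rose from 29.3 ± 7.34 to 72.2 ± 5.46 CPM at E17 and stood at 86.0 ± 12.5 CPM at E18 (SD, n = 5 each; log2 fold change 1.30 from E15 to E17 and 1.56 from E15 to E18, edgeR adjusted p = 5.23e-05 and 0.000119), or 81.8 ± 9.56 CPM at E18 without replicate 3. Nrp2, a co-receptor of VEGF and semaphorins, was the gene that fell, from 626 ± 94.8 at E15 to 422 ± 64.3 CPM at E18 (SD, n = 5 each; log2 fold change −0.56, edgeR adjusted p = 0.0104). None of its E18 teeth reached the lowest E15 tooth.

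**Figure D5:**
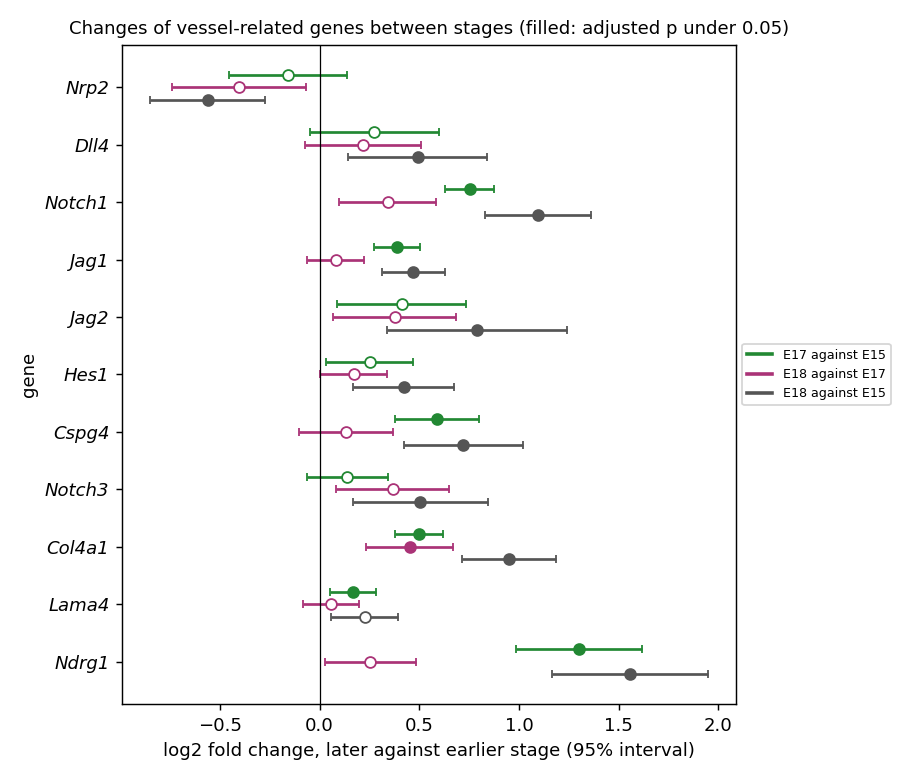
Log2 fold changes of the 11 vessel-related genes between stages; the x axis is the log2 fold change of the later against the earlier stage, bars are 95% intervals and filled points have an edgeR adjusted p under 0.05. Ndrg1 lies farthest right, at 1.30 and 1.56 against E15, and Nrp2 is the gene with all 3 estimates below 0.

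The makeup of the dissected tissue moved with stage as well. All 5 dental epithelium genes with a row, of 10 listed, were higher at E17 than at E15, against 11.3% of all genes tested. Their summed level was 228 to 318 CPM at E15, 478 to 538 CPM at E17 and 620 to 875 CPM at E18. One of them, Shh, was at 0 counts in 1 tooth. Of 10 listed dental mesenchyme genes, 7 could be joined. Of these 7, 1 was higher and 4 lower at E17 than at E15, against 11.3% and 7.02% of all genes tested. The summed level, most of which is Col1a1, was 5621 to 11682, 11059 to 20767 and 15338 to 22400 CPM. Of 10 listed bone and cartilage genes, 3 could be joined. They summed to 82.7 to 330, 110 to 341 and 186 to 302 CPM, and 1 of them, Spp1, was at 0 counts in 1 tooth. Of 5 genes in the lymphatic list, only 1 could be joined, Reln, at 10.2 to 19.5, 16.9 to 29.6 and 20.1 to 43.5 CPM. The part of these shifts in the levels above was not tested. Lists of VEGF and angiopoietin ligands, further endothelial surface genes and transcription factors, red blood cells, leukocytes, muscle, glia and cell cycle, 8 of 17 in all, had no gene that could be joined and were not analysed here.

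The gene patterns most like the mean pattern of the members were sought over the 15 libraries as the root-mean-square difference of standardised log2 levels, among 12512 genes of at least 1 CPM. Of the 12518 genes at this level, members included, 346 had a symbol. Among those with a symbol the nearest were Jak1 (0.760), Dcn (0.762), Sostdc1 (0.797), Fgf16 (0.801), Ostm1 (0.802), Hes1 (0.812), Fgf7 (0.816) and Aqp4 (0.817). In that order they ranked 36, 39, 110, 131, 135, 179, 194 and 197 among all 12512 genes. The members themselves lay between 0.637 (Kdr) and 1.09 (Tie1) from their own mean. Several genes outside the group thus lay as near to the mean as its members did.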

How the data were processed

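RNA of 15 single first molar germs was sequenced. The study names Ovation Rat RNAseq library preparation for its rat molars, which it reports at E15 and E17. The authors filtered the reads and, per the labels, used Salmon (version 0.99.0 for E18) and the build Rnor_6.0; the deposited table holds expected counts (estimated counts, written as whole numbers) per mouse Ensembl identifier, neither normalized nor corrected for length. The transcript set and the use of strand are not given in the sources used here. A deposited HTSeq table of E15 and E17 was not used, because its rat identifiers could not be joined to symbols.

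Stages were taken from the labels. The 6 members were tested in fits of the whole table with edgeR 4.0.16 (R 4.3.3): TMM scaling, filterByExpr, the quasi-likelihood F test and Benjamini-Hochberg adjustment over all genes, with a threshold of 0.05, using the 10 libraries of both stages compared and, for the contrast of both steps, all 15. Intervals (95%) were derived from the F statistic. Displayed log2 levels used a prior count of 2. The procedure was tested on simulated data with changes larger than that of Flt1, the same spread for all genes and no tooth that stood apart. That test therefore does not bear on changes as small as that of Flt1 or on such teeth. Alternatives were DESeq2 1.42.0 (size factors and Wald test), other filters, other sets of libraries and leaving out each library. Replicates are numbered by accession and were not paired. Chi-square per gene was 6.21 to 156 over the 30 pairs of same-stage libraries, so no pair was a repeat of 1 library.

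Symbols of other genes came from a list of 399 symbols with identifiers given by the study, 356 of them with a row; of 184 list entries, 27 had one. Named by rule were the members, at most 4 genes per list and comparison that passed with at least a 2-fold change (otherwise the 2 most abundant), and the 8 genes nearest in pattern. Dll4 was named outside this rule, and lists of other tissues are given as counts and summed levels. The members and lists were chosen with earlier results of these data known. Reads lacking molecular identifiers cannot be counted as separate molecules.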

Additional observations from a re-analysis of the deposited data

Results flagged for a closer look

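Among 60 groups of 5 values (members, vessel-related genes and 3 ratios, by stage), 5 had a tooth that stood far off its 4 stage mates; by chance about 1 in 20 groups, or 3, would. Cdh5 stood at 260 CPM in E15 replicate 3, against 173 to 184 CPM in the other E15 teeth. The ratio of Tie1 to Tek reads was 3.74 in E18 replicate 3, against 1.56 to 2.07. Nrp2 was at 369 CPM in E17 replicate 1, against 589 to 634 CPM. Jag1 was at 267 CPM in E17 replicate 4, against 239 to 243 CPM. Lama4 was at 488 CPM in E18 replicate 3, against 422 to 433 CPM.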

How the results depend on the processing

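The member counts (1, 0, 1 and 0 of 6) were the same in every alternative run, and ranged over 1 to 1, 0 to 0, 1 to 1 and 0 to 0 when 1 library was left out. Flt1 was called in all 16 alternatives from E15 to E17 (0.25 to 0.29) and all 17 from E15 to E18 (0.42 to 0.52), and in 0 of 17 from E17 to E18 (0.15 to 0.24). No other member was called in any alternative run, and 53 of 396 alternative values, none of Flt1 or past the threshold, changed sign.

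From E17 to E18 Cdh5 was −0.00651 with DESeq2 size factors, −0.00712 with the DESeq2 Wald test, −0.000317 without a filter, −0.00605 with at least 10 counts in every library and −0.0208 without E18 replicates 1 and 3. Tie1 was −0.00281, −0.00284, −0.00237 (at least 10 counts) and −0.103 (without both). Kdr was 0.00274 with E17 replicates 1 and 2 summed and 0.00296 without E18 replicates 1 and 3, Tek 0.0781 and Emcn 0.0279 without these. From E15 to E18 Kdr was −0.00944 with DESeq2 size factors and −0.00931 with its Wald test, and Emcn 0.149 without replicate 3 of both stages (added after seeing the data). The cause was not tested.

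With 1 library left out, values that changed sign ranged as follows. From E15 to E17: Cdh5 −0.135 to 0.0320, Kdr −0.0340 to 0.0763, Emcn −0.241 to 0.117. From E17 to E18: Cdh5 −0.0641 to 0.0397, Kdr −0.0606 to 0.0362, Tek −0.136 to 0.0690, Tie1 −0.0647 to 0.0554, Emcn −0.304 to 0.0246. From E15 to E18: Cdh5 −0.135 to 0.0346, Kdr −0.0528 to 0.0678, Tek −0.0624 to 0.152. For the contrast of both steps: Cdh5 −0.0453 to 0.177, Kdr −0.107 to 0.0652, Tek −0.207 to 0.00330, Emcn −0.308 to 0.167.

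Over all genes the count from E17 to E18 (323) was 665 with DESeq2, 1072 without E18 replicates 1 and 3, 212 with E17 replicates 1 and 2 summed, and 141 to 713 with 1 library left out, the highest without E18 replicate 3. From E15 to E17 (2315) it was 1514 with all 15 libraries in the fit, and from E15 to E18 (2656) it was 4136 without replicate 3 of both stages. For the contrast of both steps (71) it was 37 to 209 with 1 library left out, the highest again without E18 replicate 3. The planned count of E15 and E17 from the HTSeq table was not run, since its identifiers could not be joined to symbols. No paired analysis was possible because replicates are numbered by accession, which ties no tooth of one stage to a tooth of another.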

Other observations

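Genes with a pattern most like that of Flt1 alone were sought in the same way, a choice made after the values of Flt1 were seen. Among genes with a symbol the nearest were Nkd2 (root-mean-square difference 0.300, rank 3 of 12517 genes), Col4a1 (0.354), Nectin1 (0.359), Thy1 (0.364), Notch1 (0.374), Sdc1 (0.377), Wnt10a (0.392) and Fam20c (0.410). After Nkd2 the ranks were 27, 33, 38, 52, 57, 83 and 116 in that order. Col4a1 and Notch1 are among the 11 vessel-related genes above. These differences cannot be set against those to the mean of the members, which averages 6 standardised patterns. No gene among 12518 lay nearer to that mean than 0.633. All of these patterns include the difference between stages, which any gene rising from E15 to E18 shares.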
